A study of Rattus norvegicus with 18 samples.

Results

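In the visceral white adipose tissue (vWAT) of 18 male rats, 1034 genes had a median level in untreated spontaneously hypertensive rats (SHRs) that was at least 1.6 times the median of both other groups. These 1034 genes were 3.14% of the 32883 genes in the count table and 9.51% of the 10878 expressed genes, defined as those with a median of at least 2 CPM in untreated SHRs outside the mitochondrial genome and chromosome 20. CPM is a gene's count per 1000000 counts of its library. The members were chosen on the measured medians themselves, so their difference from the other groups describes the choice and is not a result. A further 3 genes within the limits were left out because every value in treated SHRs lay below every value in untreated SHRs, and 3 mitochondrial and 14 chromosome 20 genes were left out by position.

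The WKY group held 6 Wistar-Kyoto rats, the normotensive strain commonly used as the control for SHRs, and received no TMAO. The SHR-Water group held 6 SHRs that drank tap water, and the SHR-TMAO group held 6 SHRs that drank water with 1 g/L trimethylamine N-oxide (TMAO) for 22 weeks from 7 to 8 weeks of age. The rats were housed 3 to a cage, and which rats shared a cage was not given in the sources used here. SHRs are inbred and differ from WKY rats at many loci besides those for blood pressure, so strain and hypertension cannot be told apart in this design.

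Visceral fat surrounds the abdominal organs, where its adipocytes store triglyceride after meals and break it down by lipolysis during fasting. Vessels, connective tissue and resident leukocytes are sampled with the adipocytes when a depot is homogenized. TMAO is formed in the liver from trimethylamine, which gut bacteria make from choline and carnitine. In a bulk tissue sample, fewer cells of a type and less RNA per cell cannot be told apart.

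The count table names genes only by Ensembl identifier, and 0 of the 32883 identifiers were paired with a symbol by the reference tables used here. Members are therefore described by position in the Rnor_6.0 rat assembly, exon length and level. Marker genes of adipocytes and of other cell types, pathway lists and sequences were not analysed here.

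The 1034 members were not a set of genes raised in every untreated SHR. Most followed one profile over the 18 libraries, high in SHR-Water rats 2, 3 and 4 and in WKY rat 2, and low in SHR-Water rat 1. To place all members on one scale, each gene's CPM was divided by that gene's mean CPM over the 18 libraries, and the median of this relative level was taken over the members. In SHR-Water rats 1 to 6 it was 0.45, 2.21, 1.93, 2.06, 0.94 and 1.02. In WKY rats 1 to 6 it was 0.58, 1.69, 0.63, 0.45, 0.63 and 0.53. In SHR-TMAO rats 1 to 6 it was 1.13, 0.57, 0.68, 0.48, 0.53 and 0.95. The groups overlapped: SHR-Water rat 1 had the lowest value of all 18 libraries, and WKY rat 2 lay above 3 of the 6 SHR-Water rats. As mean ± SD (n = 6 each) the relative level was 1.44 ± 0.724 in SHR-Water, 0.754 ± 0.465 in WKY and 0.722 ± 0.262 in SHR-TMAO.

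**Figure D1:**
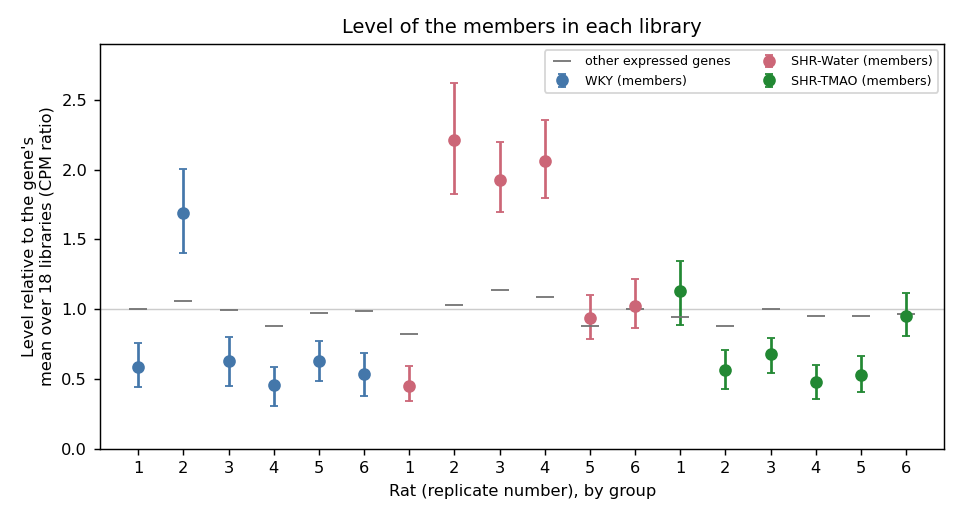
Median level of the 1034 members in each of the 18 libraries, as CPM divided by the gene's mean CPM over all libraries (y axis), by rat and group (x axis). Points are medians, bars run from the lower to the upper quartile over members, and grey dashes are the medians of the other expressed genes. SHR-Water rats 2, 3 and 4 lie at 1.93 to 2.21 and WKY rat 2 at 1.69, while SHR-Water rat 1 lies at 0.45.

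The same rats stood apart gene by gene. SHR-Water rat 1 was the lowest of the 6 SHR-Water rats in 941 of the 1034 members, or 91.0%, against 46.3% of the 9844 other expressed genes. In 900 members, or 87.0%, rats 2, 3 and 4 all lay above rats 1, 5 and 6, which was also so in 37.1% of the other genes. SHR-Water rat 2 was the highest of its group in 515 members (49.8%, against 16.4% of the other genes). Rat 4 was the highest in 326 (31.5%, against 23.8%). Rat 3 was the highest in 160 (15.5%), a smaller share than in the other genes (26.1%). In the WKY group, rat 2 was the highest in 919 members, or 88.9%, against 36.3% of the other genes. In the SHR-TMAO group, rat 1 was the highest in 642 members (62.1%, against 24.9% of the other genes) and rat 6 in 295 (28.5%, against 16.2%). These are descriptions of the values the members were chosen on, and no test was run on them.

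The limits were therefore met by different numbers of rats. A level of at least 1.6 times both other medians was reached by 3 of the 6 SHR-Water rats in 576 members, by 4 in 322, by 5 in 132 and by all 6 in 4. The same limits gave 482, 472 and 482 genes without SHR-Water rats 2, 3 and 4. Without SHR-Water rats 1, 5 and 6 they gave 1442, 1518 and 1477. SHR-Water rat 1 lay below the WKY median in 773 members. WKY rat 2 reached the SHR-Water median in 706 members and 1.6 times its own group's median in 904. Among the treated SHRs, rat 1 reached 1.6 times the WKY median in 643 members and rat 6 in 476, against 40 to 147 for the other 4 rats.

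All 6 SHR-Water rats lay above all 6 WKY rats in 18 members, or 1.74%, and the same held for 1.19% of the expressed genes. Without SHR-Water rat 1 and WKY rat 2, which were set aside after the values were seen, it held in 573 members, or 55.4%, against 13% of the expressed genes. No member had all SHR-Water values above all SHR-TMAO values, because such genes had been left out. Without SHR-Water rat 1 there were 75, or 7.25% of the members against 2.47% of the expressed genes. The limits chose the members for a high SHR-Water median in both comparisons. Their larger shares therefore describe the choice and are not a result.

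**Figure D2:**
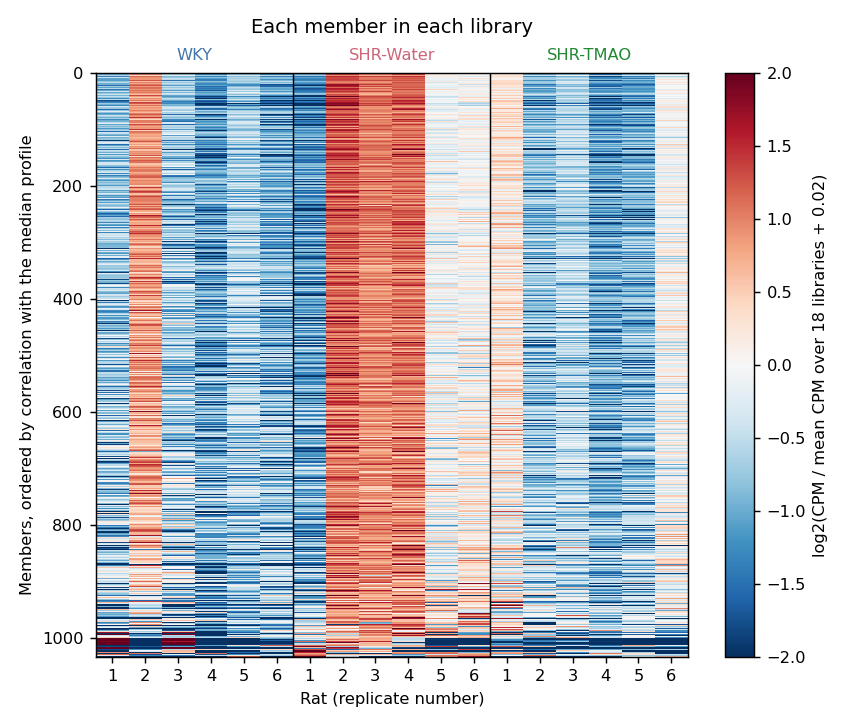
Each of the 1034 members (rows, ordered by correlation with the members' median profile) in each of the 18 libraries (columns, by group and rat). Colour is log2 of the level relative to the gene's mean plus 0.02, cut at -2 and 2. Nearly all rows share the red columns of WKY rat 2 and SHR-Water rats 2, 3 and 4, and the lowest rows, 36 with a correlation below 0.3, do not.

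Most members kept close to this profile. The correlation of a member's log2 level with the members' median profile over the 18 libraries was above 0.9 in 553 members, above 0.8 in 859 and below 0.3 in 36. Each member is part of that median profile, so these values describe how alike the members were.

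The gene with this profile and the largest smaller ratio, chosen after the values were seen, lay at chr18:32669427-32670665 on the minus strand, a single exon of 1239 bases. Its CPM was 1.39, 22.7, 16.9, 20.2, 4.51 and 3.99 in SHR-Water rats 1 to 6. It was 3.84, 15.2, 2.51, 1.34, 1.34 and 1.21 in WKY rats 1 to 6, and 7.86, 1.88, 1.91, 1.93, 1.87 and 5.93 in SHR-TMAO rats 1 to 6. The SHR-Water median was 5.55 times that of WKY and 5.57 times that of SHR-TMAO, yet SHR-Water rat 1 lay below 3 of the WKY rats and below every SHR-TMAO rat.

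The next, a gene of 32 exon blocks with 8542 exonic bases at chr1:161401527-161880923, repeated the order. Its CPM was 8.06, 51.2, 46.1, 49.7, 13.5 and 11.2 in SHR-Water, 7.03, 37.2, 8.26, 5, 3.73 and 2.94 in WKY, and 23.9, 5.7, 5.78, 4.89, 3.68 and 10.4 in SHR-TMAO. WKY rat 2 again exceeded SHR-Water rats 1, 5 and 6. A gene with 2 exon blocks at chr3:54253949-54267292 had 0.464, 13, 12.5, 14.8, 3.56 and 5.26 CPM in SHR-Water, 0.365, 6.58, 1.21, 1.57, 1.41 and 0.511 in WKY, and 5.58, 1.04, 2.44, 1.33, 1.17 and 4.4 in SHR-TMAO. Here too SHR-Water rat 1 was the lowest of its group and SHR-TMAO rats 1 and 6 were the highest of theirs.

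The most abundant members showed the same rats with smaller ratios. The member with the highest SHR-Water median, at chr9:10963723-10971277, had 565, 1642, 1599, 2134, 1286 and 1214 CPM in SHR-Water rats 1 to 6. It had 243, 1320.0, 400.1, 667, 719.8 and 504 CPM in WKY and 1766, 684, 835, 506, 579.5 and 844 CPM in SHR-TMAO. SHR-TMAO rat 1 exceeded all but 1 of the SHR-Water rats. A gene of 47 exon blocks at chr16:83387364-83438561 had 302, 1224, 1068, 1279, 634 and 758 CPM in SHR-Water, 214, 1158, 214, 391, 420.1 and 265 in WKY, and 939.6, 502, 432, 318, 327 and 715 in SHR-TMAO. A gene of 39 exon blocks at chr14:114518816-114692764 had 226, 1524, 1160.4, 1364, 549.5 and 605 CPM in SHR-Water, 518, 1352, 458, 370.1, 652 and 526 in WKY, and 805, 330.0, 455, 327, 301 and 669 in SHR-TMAO. In this gene SHR-Water rat 1 was the lowest of all 18 rats.

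The ratio of the SHR-Water median to the WKY median ranged from 1.6 to 19.5 over the members with a median of 2.33, and the ratio to the SHR-TMAO median ranged from 1.6 to 46.8 with a median of 2.19. Both ratios were at least 2 in 506 members, at least 3 in 93, at least 4 in 22 and at least 5 in 4. Just inside the limit, at 1.6 times the SHR-TMAO median, a gene at chr9:16942359-16979044 had medians of 12.3 CPM in SHR-Water, 6.48 in WKY and 7.68 in SHR-TMAO. Just outside it, a gene at chr5:139983680-140015541 had medians of 21.7, 9.77 and 13.6 CPM. The same limits with WKY as the high group took 444 genes and with SHR-TMAO as the high group 80, and 130 genes were lower in SHR-Water by the same factor.

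The profile was shared by members of every level, all of them chosen for a high SHR-Water median. The members' SHR-Water median was 9.85 CPM, against 22.3 CPM in the other expressed genes, with 526 members under 10 CPM and 43 at 100 CPM or more. In the 43 abundant members the relative level was 0.57, 1.84, 1.71, 1.75, 1.0 and 1.06 in SHR-Water rats 1 to 6 and 1.53 in WKY rat 2. In the 526 members under 10 CPM it was 0.45, 2.24, 1.98, 2.1, 0.93 and 1.04, and 1.65. Members made up 16.3% of the lowest of 5 equal classes of expressed genes by level and 3.40% of the highest.

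Members tended to be longer genes. Their median genomic span, from the first to the last annotated base, was 48536 bases against 19271 bases in the other expressed genes. Their median exon length was 2858 bases against 2349 bases, and their median number of exon blocks was 13 against 9. In 5 equal classes of genomic span from short to long, members were 6.16%, 4.05%, 6.71%, 11% and 19.6% of the expressed genes. In 5 equal classes of exon length they were 6.62%, 6.84%, 9.94%, 11.2% and 12.9%. The short members followed the same rats as the long ones. Short and long members had met the same limits, so high levels in at least 3 SHR-Water rats were set by the choice in every class. In the 134 members of the shortest span class the relative level was 0.54, 2.05, 1.78, 1.86, 0.97 and 1.17 in SHR-Water rats 1 to 6, and in the 427 of the longest class it was 0.44, 2.35, 2.0, 2.09, 0.91 and 0.97. WKY rat 2 had 1.45 in the short members and 1.73 in the long ones. The 54 members with a single exon had 0.49, 2.09, 1.74, 1.97, 0.90 and 1.05.

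**Figure D3:**
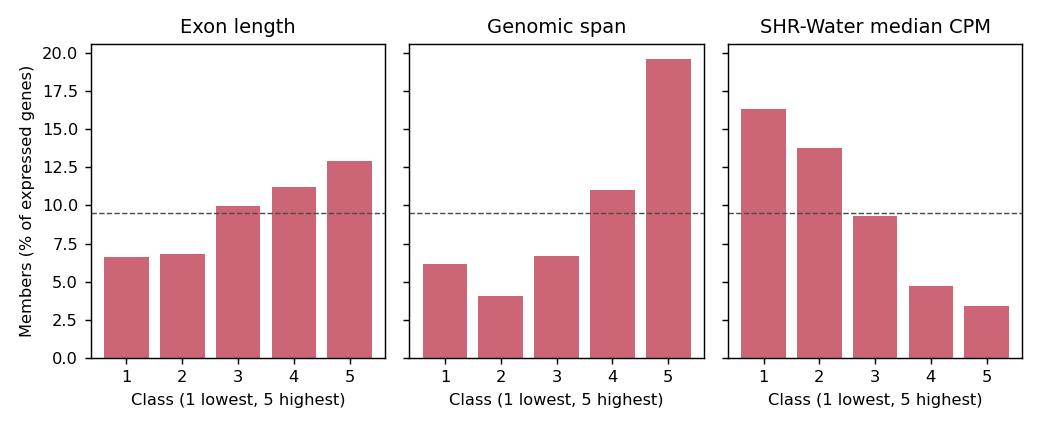
Share of expressed genes that are members (y axis, %) in 5 equal classes of exon length, genomic span and SHR-Water median CPM (x axes, 1 lowest to 5 highest). The dashed line is the share over all expressed genes, 9.51%. The share rises to 19.6% in the longest genomic spans and falls to 3.40% in the most abundant genes.

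The libraries in which the members were high were also those in which the other long genes were high. Over the 9844 other expressed genes, the Spearman correlation between exon length and a library's log2 deviation from the gene's mean was 0.54, 0.52 and 0.53 in SHR-Water rats 2, 3 and 4 and 0.31 in WKY rat 2. It was -0.25 in SHR-Water rat 1, 0.06 and -0.06 in SHR-Water rats 5 and 6, between -0.49 and 0.02 in the other 5 WKY rats, and between -0.43 and 0.11 in SHR-TMAO. Across the 18 libraries this length trend had a Pearson correlation of 0.937 and a Spearman correlation of 0.897 with the members' relative level, and a Pearson correlation of 0.897 without the 2 libraries farthest from the median trend. Within groups of 6 rats Pearson's r was 0.984 in SHR-Water, 0.985 in SHR-TMAO and 0.799 in WKY, and the WKY value fell to 0.07 without the 2 farthest libraries. The same trend taken on genomic span had a Pearson correlation of 0.958 with the members' relative level over the 18 libraries. Within SHR-Water, SHR-TMAO and WKY it was 0.978, 0.938 and 0.925, and the WKY value fell to -0.06 without the 2 farthest libraries. These are descriptions over libraries of unlike depth, and within a library both measures share its depth and its scaling. No p-value is given, since members and trend come from the same libraries. The share of counts on the mitochondrial genome, 21.4 ± 5.43% in SHR-Water, 14.9 ± 5.12% in WKY and 16.8 ± 3.52% in SHR-TMAO (SD, n = 6 each), had a Pearson correlation of 0.04 with the members' level over all 18 libraries, and of -0.67, -0.22 and 0.49 within SHR-Water, WKY and SHR-TMAO. The number of genes at 1 CPM or more, 11572 to 12736 per library, had a Pearson correlation of 0.63 with the members' level over all libraries, and of 0.85, 0.32 and 0.28 within the same groups. The parts of the length and span trends in the members' profile were not tested. With each library's length trend removed from the log2 levels, the same limits gave 987 genes, of which 813 were members.

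**Figure D4:**
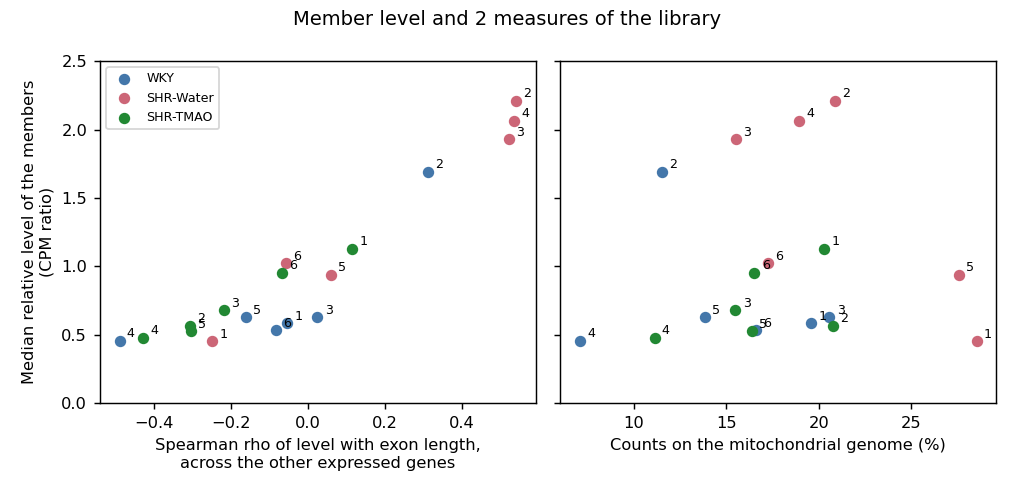
Median relative level of the members (y axis, CPM ratio) against the Spearman correlation of level with exon length across the other expressed genes (left) and against the percentage of counts on the mitochondrial genome (right). Each point is 1 library, numbered by rat. On the left the members' level rises with the length trend (r = 0.937), with SHR-Water rats 2, 3 and 4 and WKY rat 2 at the upper end, and on the right r is 0.04 over all libraries and -0.67, -0.22 and 0.49 within SHR-Water, WKY and SHR-TMAO.

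The libraries held 10774133 to 18874161 counts. Members took 1.11% to 4.14% of the counts of a SHR-Water library, 0.98% to 2.92% in WKY and 0.93% to 2.29% in SHR-TMAO. At most 5 members per library had a count of 0. SHR-Water rat 1 was not a shallow library, with 17251247 counts, and it had the highest mitochondrial share, 28.5%. No pair of libraries within a group agreed within sampling noise, the lowest chi-square per degree of freedom being 13.2. The labels do not say more of the rats than their group. Each p-value sets the difference between 2 groups against the spread between rats within those groups. The rats are taken as independent there, although which of them shared a cage was not given.

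A small number of members followed other rats, among them the 2 with the largest smaller ratio. ENSRNOG00000047746, at chr1:11963836-11968939 on the plus strand with 1140 exonic bases, had 22.2, 251, 98.8, 3.09, 0.127 and 0.0634 CPM in SHR-Water rats 1 to 6. It had 341, 0.159, 438, 2.21, 0.672 and 0.255 CPM in WKY, and 0.874, 0.194, 0.238, 0.302, 0.32 and 0.212 CPM in SHR-TMAO. Its 2 highest values were thus in WKY rats 1 and 3, above every SHR-Water rat, although the SHR-Water median was 8.78 times the WKY median and 46.8 times the SHR-TMAO median. ENSRNOG00000025156, at chrX:15340839-15347591 on the minus strand with 519 exonic bases, had 15.1, 1.9, 0.134, 0.0619, 4.7 and 7.73 CPM in SHR-Water, 0.548, 0.106, 0.278, 0.407, 5.56 and 0.383 in WKY, and 0.0672, 0.0647, 0.298, 0.242, 2.03 and 3.87 in SHR-TMAO. It was highest in SHR-Water rat 1, the rat in which most members were lowest, and its correlation with the members' profile was -0.17. Neither gene passed the low-count filter of the SHR-TMAO to WKY comparison. Fitted without that filter in edgeR, ENSRNOG00000047746 had a log2 fold change of -8.41 (adjusted p = 0.0171) that rested on WKY rats 1 and 3, and ENSRNOG00000025156 had -0.13 (adjusted p = 0.963).

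In 17 members WKY rats 1 and 3 held the 2 highest values of the 18 libraries, a pattern also met in 5.49% of the other expressed genes and in 1.64% of the members. These 17 were gathered at few places: 9 lay within chr14:46523594-46657975, where 10 members followed each other with no other expressed gene between them, and 4 lay within chr6:30638733-30643594. Of the 17, 12 had under 500 exonic bases. The most abundant, 1092 exonic bases at chr14:46523594-46529375, had 4694, 93.8, 3814, 106, 91.6 and 172 CPM in WKY rats 1 to 6. It had 693, 1692, 1308, 540.2, 197 and 107 CPM in SHR-Water and 321, 147, 131, 99.9, 88.1 and 73.8 in SHR-TMAO. A gene of 57 bases at chr6:30641117-30641173 had 1461, 42.2, 1735, 25.3, 38.9 and 45.3 CPM in WKY, 188, 325, 422, 156, 28.4 and 27.6 in SHR-Water, and 122, 46.1, 49.4, 48.8, 30.2 and 20.8 in SHR-TMAO. The 17 genes took 1.79% and 1.48% of all counts in WKY rats 1 and 3, 0.208% to 0.548% in SHR-Water rats 1 to 4, and at most 0.118% in the other 12 libraries. WKY rats 1 and 3 were also the shallowest libraries, with 10948600 and 10774133 counts.

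Some of these annotated genes lie on opposite strands of the same bases and cannot be counted as separate. The gene at chr14:46649971-46650381 on the plus strand had 100199 counts over the 18 libraries, and the one at chr14:46649976-46650359 on the minus strand had 100060. In single libraries the count of the first was 0.887 to 1.05 times that of the other. Over all members, 117 (11.3%) overlapped another annotated gene on the same strand, against 8.71% of the other expressed genes, and 160 (15.5%) overlapped one on the opposite strand, against 15.6%. The counting used a strand-specific setting, and whether the libraries kept strand could not be settled from the sources used here. Levels of such genes and the split by strand are therefore uncertain, since near-identical or overlapping copies can also share reads.

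Members were found on every chromosome with at least 20 expressed genes apart from the 2 left out, from 6.48% of the expressed genes on chromosome 12 to 13.4% on chromosome 11. Of the 1032 members with a following expressed gene on their chromosome, 136 (13.2%) had another member as that neighbour. Members were 9.51% of all expressed genes. There were 21 runs of at least 3 neighbouring members, of 3 to 10 genes. The run of 10, on chromosome 14, holds annotated genes on opposite strands of the same bases, which cannot be counted as separate neighbours.

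The comparison of SHR-TMAO with WKY was the one whose size the limits did not set, although the limits held the medians of both groups below SHR-Water. A member with medians far apart between SHR-TMAO and WKY had to be higher still in SHR-Water. The members' shares beside those of all genes are therefore not free of the choice. Of the 1034 members, 1019 passed the low-count filter, and the 15 that did not had SHR-Water medians of 2.1 to 12.6 CPM. Among the 1019 the median log2 fold change was -0.02, with quartiles of -0.25 and 0.21, and it was -0.02 over all 12833 genes tested. The fold change was above 0 in 495 members and below 0 in 524. This balance moved with single rats: without WKY rat 2 the fold change was above 0 in 843 members and below 0 in 181 (median 0.34), and without SHR-TMAO rat 1 it was above 0 in 328 and below 0 in 692 (median -0.18).

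By edgeR's quasi-likelihood test, at an adjusted p under 0.05 and at least a 2-fold change, 16 of 1019 members (1.57%) were higher in SHR-TMAO than in WKY, and 1.45% of all genes tested were. In the other direction 2 members (0.196%) were lower, against 2.17% of all genes tested. At an unadjusted p under 0.05 there were 68 members (6.67%), against 23.4% of all genes, and without WKY rat 2 there were 219 (21.4%), against 28.1%. Without WKY rat 2, the rat in which the members stood apart from their group, the counts became 28 members higher, against 1.79% of all genes, and 16 lower, against 3.04%. Without WKY rat 4 they were 14 higher, against 1.69% of all genes, and 17 lower, against 3.29%. Without WKY rat 1 they were 11 higher (1.24% of all genes) and 0 lower (1.61%), and without WKY rat 3 they were 9 higher (1.24%) and 0 lower (1.57%). Without SHR-TMAO rat 6 they were 9 higher (1.28% of all genes) and 1 lower (1.67%). DESeq2 called 23 members higher, against 1.93% of all genes, and 17 lower, against 3.29%.

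The 16 members higher in SHR-TMAO had log2 fold changes of 1.08 to 2.75 with a median of 1.75, and 9 of them were called in all 12 fits that left out 1 rat. In all 16 the SHR-Water mean lay above the SHR-TMAO mean, as the limits favoured. In 14 of the 16 the WKY median was under 10 CPM.

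Positions among the called genes below were chosen after their values were seen. The largest increase was at chr1:252976644-253000760 on the minus strand, a gene of 6 exon blocks and 3342 exonic bases. Its CPM was 0.639, 2.18, 1.02, 1.86, 1.65 and 3.64 in WKY rats 1 to 6, 12.6, 12.7, 10.8, 11, 10.9 and 15.2 in SHR-TMAO, and 4.87, 27.6, 23.8, 28.5, 16.2 and 15.1 in SHR-Water. No treated or untreated SHR overlapped a WKY rat. The edgeR log2 fold change of SHR-TMAO over WKY was 2.75 ± 0.32 (SE), with an adjusted p of 0.000118, and the highest adjusted p over the 12 fits without 1 rat was 0.000583.

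A single-exon gene of 2649 bases at chr4:89693280-89695928 had 0, 1.11, 1.11, 0.698, 0.856 and 0 CPM in WKY, 6.45, 1.1, 4.47, 3.32, 4.86 and 3.55 in SHR-TMAO, and 1.39, 15.1, 4.75, 23.8, 2.48 and 11.5 in SHR-Water. Its lowest SHR-TMAO value lay just below the 2 highest WKY values, and the edgeR log2 fold change was 2.66 ± 0.65 (adjusted p = 0.0235). A gene of 21 exon blocks at chr5:168086998-168123395 had 8.95, 7.91, 7.52, 5.87, 3.36 and 11.9 CPM in WKY, 33.1, 13.9, 16.3, 13.9, 22.6 and 24.3 in SHR-TMAO, and 13.9, 32.6, 35.1, 65.1, 19.7 and 32.4 in SHR-Water. All 12 SHRs lay above all 6 WKY rats, with an edgeR log2 fold change of 1.49 ± 0.28 for SHR-TMAO over WKY (adjusted p = 0.00577).

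The most abundant of the 16, at chr4:78694447-78715683, had 38.6, 88.4, 36.4, 75.4, 100.1 and 66.2 CPM in WKY, 375, 153, 84.7, 127, 108 and 113 in SHR-TMAO, and 232, 143, 185, 380.0, 321 and 122 in SHR-Water. SHR-TMAO rat 3 lay within the WKY range. Its edgeR log2 fold change was 1.29 ± 0.36 (adjusted p = 0.0445), and the call was kept in 5 of the 12 fits without 1 rat. In this gene SHR-Water rat 1 was not low, unlike in most members.

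Both members called lower in SHR-TMAO belonged to the 17 with WKY rats 1 and 3 highest. The one at chr14:46654573-46654621, of 49 bases, had 190.0, 4.67, 330.4, 2.62, 3.79 and 7.15 CPM in WKY and 8.06, 5.11, 5.54, 2.9, 2.19 and 1.7 in SHR-TMAO. The one at chr1:221151827-221153278 had 127, 28.2, 137, 8.55, 11.9 and 25.2 CPM in WKY and 4.64, 14.5, 12.8, 13, 13 and 12.7 in SHR-TMAO. Their edgeR log2 fold changes were -4.35 ± 1.19 and -2.19 ± 0.62, with adjusted p of 0.0397 and 0.046. Neither was called without WKY rat 1 or without WKY rat 3, where no member was called lower.

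**Figure D5:**
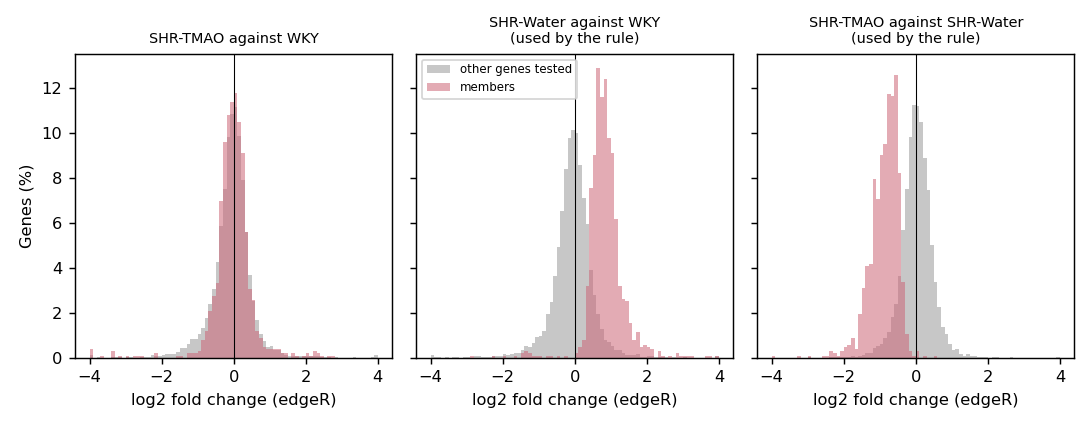
Distribution of edgeR log2 fold changes in the 3 comparisons (x axis, cut at -4 and 4) as a percentage of genes (y axis), for the members (red) and the other genes tested (grey). In SHR-TMAO against WKY both distributions centre near 0 (medians -0.02), and in the other 2 comparisons, which chose the members, the members lie to one side.

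The counts in the comparisons that the limits used are given as a description, since the members were chosen on the same values. In SHR-Water against WKY 1033 members were tested, their median log2 fold change was 0.82, and 54 were called higher by edgeR, against 1.29% of all genes. Without WKY rat 2 the number was 539, against 6.36% of all genes, and without SHR-Water rat 1 it was 169, against 2.48%. It was 33 without SHR-Water rat 2, 34 without WKY rat 1, 35 without WKY rat 3 and 34 without WKY rat 5, against 1.07%, 0.99%, 1.02% and 1.03% of all genes. DESeq2 called 136 members higher, against 2.32%, and limma voom with quality weights 667, against 8.07%. In SHR-TMAO against SHR-Water the median log2 fold change was -0.81 over 1032 members. By edgeR 0 members were called lower, and 0% of all 12852 genes, while 617 members had an unadjusted p under 0.05, against 25% of all genes. DESeq2 called 172 members lower, against 2.17% of all genes, and limma voom with quality weights 537, against 6.15%. Left-out rats, added after seeing the data, gave 442 by DESeq2 without SHR-Water rat 1, against 4.94%, and 414 without SHR-TMAO rat 1, against 4.57%. Without SHR-Water rat 1 edgeR called 341 members lower, against 3.88% of all genes, and without SHR-TMAO rat 1 it called 197, against 2.24%. All 3 comparisons share samples with each other and with the choice of members.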

How the data were processed

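RNA from vWAT of 18 rats was made into SMART libraries and sequenced by the authors, who trimmed reads (cutadapt 2.5), aligned them to Rnor_6.0 (HISAT2 2.1.0) and counted them per gene with featureCounts 1.6.3, per the labels and the file header. The deposited counts are whole reads per gene. Groups came from the labels, 6 rats each. CPM used the column total. The limits on members (1.6-fold, 2 CPM) were applied to group medians. Members and lists were chosen with earlier results of these data known. The 2 members with the largest smaller ratio are named by identifier. Each comparison was fitted over all genes of its 12 libraries with edgeR 4.0.16 (TMM, filterByExpr, quasi-likelihood test, Benjamini-Hochberg adjustment), with calls at adjusted p under 0.05 and 2-fold or more. DESeq2 1.42.0, limma 3.58.1, other scalings, no filter, a length-trend offset and leaving out each rat were alternatives. The fits were tested on simulated counts with known fold changes, independent samples and a dispersion common to all genes. Those counts held no outlying rat and no length trend, so they do not show how the fits behave with these. Relative levels, length trends and overlaps were computed in Python 3.11.15. Depth, 10774133 to 18874161 counts, limits precision at low levels, 2 CPM being 21.5 to 37.7 counts.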

Additional observations from a re-analysis of the deposited data

Results flagged for a closer look

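Each group of 6 rats was checked for a rat far from the rest in 24 sets of values (6 measures of the libraries and the 2 genes named by identifier, in 3 groups), and 3 were found. Chance gives about 5% of such sets when they are independent and not chosen on their values. All 3 found were of the members' level or of the 2 named genes, which the limits chose. They cannot be set against that share. The members' median relative level was 1.69 in WKY rat 2, against 0.455 to 0.629 in the other 5 WKY rats. ENSRNOG00000025156 was at 5.56 CPM in WKY rat 5, against 0.106 to 0.548 CPM in the other WKY rats. ENSRNOG00000047746 was at 0.874 CPM in SHR-TMAO rat 1, against 0.194 to 0.32 CPM in the other SHR-TMAO rats.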

How the results depend on the processing

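The number of members was 506 with a 2-fold limit, 792 with TMM library sizes and 1204 with totals free of mitochondrial genes. It ran from 472 to 1518 when 1 rat was left out. Without SHR-Water rats 2, 3 and 4 it was 482, 472 and 482. Without SHR-Water rats 1, 5 and 6 it was 1442, 1518 and 1477. For SHR-TMAO against WKY, edgeR called 18 members (16 higher and 2 lower, against 1.45% and 2.17% of all genes). DESeq2 called 40 (23 higher and 17 lower, against 1.93% and 3.29%). With 1 rat left out the number was 9 to 44, given here with the shares of all genes called higher and lower. It was 9 without WKY rat 3 (1.24% and 1.57%) and 44 without WKY rat 2 (1.79% and 3.04%). It was 10 without SHR-TMAO rat 6 (1.28% and 1.67%) and 11 without WKY rat 1 (1.24% and 1.61%). Without WKY rat 4 it was 31 (1.69% and 3.29%). For SHR-Water against WKY the 54 (1.29% of all genes) became 136 with DESeq2 (2.32%) and 667 with limma voom quality weights (8.07%). With 1 rat left out of edgeR it was 33 to 539. It was 539 without WKY rat 2 (6.36%), 33 without SHR-Water rat 2 (1.07%) and 34 without WKY rat 1 (0.99%). Without WKY rats 3 and 5 it was 35 (1.02%) and 34 (1.03%). For SHR-TMAO against SHR-Water the 0 (0% of all genes) became 172 with DESeq2 (2.17%) and 537 with limma voom (6.15%). With 1 rat left out of edgeR it was 0 to 341, the 341 being without SHR-Water rat 1 (3.88%). By DESeq2, in fits added after seeing the data, 442 were called without SHR-Water rat 1 (4.94% of all genes) and 414 without SHR-TMAO rat 1 (4.57%). The cause of these differences was not tested. Over the alternatives the members' median log2 fold change was 0.70 to 1.21 in SHR-Water against WKY and -1.08 to -0.66 in SHR-TMAO against SHR-Water. The limits chose the members for these signs, so their being kept is not a result. In SHR-TMAO against WKY the median ran from -0.18 to 0.34. Same-numbered rats deviated together, with a correlation over 0.1, in 1 of 6 pairs of SHR-TMAO and WKY, 5 of 6 of SHR-Water and WKY (0.13 to 0.53, with -0.27 for number 4) and 0 of 6 of SHR-TMAO and SHR-Water. Nothing in the labels ties the numbers to a shared source, so they were not used as a pairing. In edgeR fits with the replicate number as a block, 9 members were called higher in SHR-TMAO than in WKY, against 1.15% of all genes. There 0 members were lower, against 1.51%. In SHR-Water against WKY 164 were called higher, against 2.27%, and in SHR-TMAO against SHR-Water 0 were called, against 0%.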
